A study of Mus musculus with 6 samples.

Results

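The miR-17 seed family was followed across classical (Ly6Chigh) and non-classical (Ly6Clow) mouse monocytes. Its members were chosen by assay name, as mmu-miR-17, mmu-miR-20a, mmu-miR-106a, mmu-miR-20b, mmu-miR-93 and mmu-miR-106b without the mark for the opposite strand, which gave 6 of the 750 miRNA assays on the array. No measured value entered this rule, although earlier results of these data were known when it was chosen. Monocytes were freshly isolated from 3 mice of the DBA/1 strain, and each mouse gave 1 Ly6Chigh and 1 Ly6Clow sample, which makes 3 pairs and 6 samples. The series lists no treatment for these mice, and their age, sex and sorting gates were not given in the sources used here. From each sample, 10 ng of RNA was read on a TaqMan low-density array, a real-time PCR platform on which every well carries a different assay. The readout is the threshold cycle (Ct), that is, the number of PCR cycles needed before the probe signal crosses a set level. A Ct later by 1 cycle corresponds to 1 log2 unit less template. Wells with no signal carry the value 40, and an assay is called detected here when its Ct was under 35.

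MiRNAs guide the silencing complex to messenger RNAs mainly through their seed, bases 2 to 8, so that miRNAs with the same seed have overlapping sets of predicted targets. The family is made from 3 related polycistronic clusters, which also encode miRNAs of the miR-18, miR-19 and miR-25 seed families. It is best known for promoting proliferation and survival by lowering cell cycle inhibitors such as p21 and the pro-apoptotic protein Bim. In human blood progenitors in culture, overexpression of the miR-17/miR-92a cluster delays differentiation into monocytes. Per the paper, loss of this cluster does not affect the formation of monocytes in mouse.

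The mature sequences are shown because the assays have to tell them apart. All 6 members matched a mature entry of RefSeq (build GRCm38.p6), and the sequences are written 5′ to 3′ with the seed in capitals.
mmu-miR-17: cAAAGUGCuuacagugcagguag
mmu-miR-20a: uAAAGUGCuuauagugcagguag
mmu-miR-106a: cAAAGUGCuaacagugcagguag
mmu-miR-20b: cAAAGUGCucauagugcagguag
mmu-miR-93: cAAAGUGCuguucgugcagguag
mmu-miR-106b: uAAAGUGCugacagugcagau
The seed AAAGUGC was held by 7 of the 1738 mature miRNA entries of that annotation, or 0.403%. The seventh, mmu-miR-6383, was not matched to an assay. Counted from 1 at the 5′ end, miR-17 and miR-106a differ by the single substitution U10A, and miR-17 and miR-20b differ by U10C and C12U. miR-17 and miR-20a differ by C1U and C12U. miR-93 stands furthest from miR-17 with 4 substitutions (U10G, A11U, C12U and A13C), and miR-106b has 3 over the 21 bases compared (C1U, U10G and G20A). How far an assay also reads a near-identical relative was not tested, so the values of miR-17 and miR-106a in particular may share signal.

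In the RefSeq annotation, each cluster gives 2 of the 6 members. The miR-17/miR-92a cluster on chromosome 14 holds miR-17 and miR-20a, the miR-106a/miR-363 cluster on the X chromosome holds miR-106a and miR-20b, and the miR-106b/miR-25 cluster on chromosome 5 holds miR-106b and miR-93 inside the gene Mcm7, which encodes a subunit of the replicative helicase. The member that comes first along the transcribed strand is miR-17, miR-106a or miR-106b. The second hairpin of the family begins 486, 375 and 208 bases further on.

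**Figure D1:**
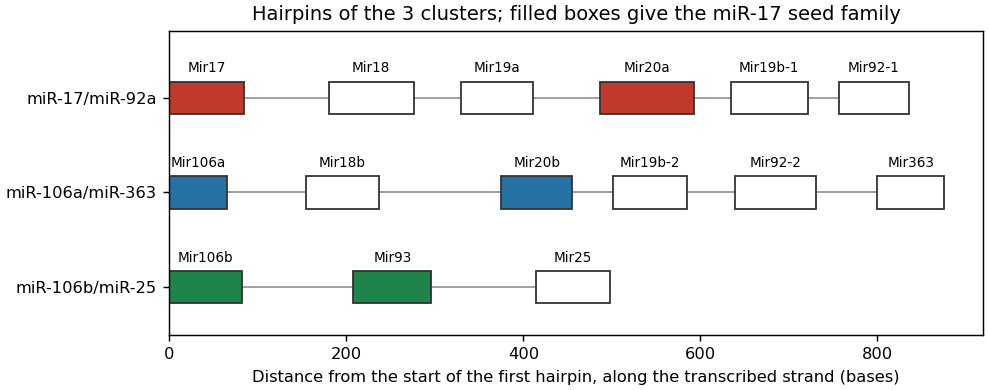
Hairpins of the 3 clusters, drawn to scale from RefSeq GRCm38.p6, with the distance from the first hairpin in bases along the transcribed strand on the x axis. Filled boxes are the 6 hairpins that give the members, and open boxes are their neighbours; the first hairpin of each cluster is a family member.

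One library stood apart and decided the sign of the 6-sample differences of the 6 members and of their cluster means. The labels name only primer pool A, and cards A and B were told apart here by the order in which the wells are listed. On card A, which holds all 6 members, the Ly6Chigh sample of mouse 1 had rank correlations (Spearman) with the other 5 samples of only 0.101 to 0.148 over the 127 tested assays, against 0.733 to 0.943 among those 5 (these are correlations across assays, which are no replicates). Its myeloid and pan-blood markers miR-223, miR-142-3p and miR-142-5p were all 3 listed at 40, and all 3 were detected in each of the other 5 samples. Their summed level relative to U6, on the log2 scale, was −15.75 in that sample (set by the value of 40), 3.03 and 3.90 in the other Ly6Chigh samples, and 1.42 to 3.14 in the Ly6Clow samples. Of the other marker lists some were higher there and some lower. The summed level of the 5 epithelial markers was 0.69 in that sample and −7.35 to −5.23 in the other 5, with miR-200b at a Ct of 21.98 against 27.09 to 40, and 2 of the 5 were detected. That sum rests on miR-200b, as miR-200c (−7.30) lay within the other samples (−8.04 to −5.37) and the rest were at 40. The summed level of the 4 liver, muscle and neuron markers was −6.31 against −14.14 to −8.28, with only miR-122 detected, at 28.98. The erythroid sum (−15.29 against −11.18 to −8.29) and the platelet and endothelial marker miR-126-3p (−17.34 against −10.05 to −6.32) were lowest there, with no assay detected. Lymphocyte markers (miR-150, miR-181a and miR-342-3p) were detected in each of the other 5 samples, 3 of 3, with a summed log2 level of −2.20 to 0.92. In the Ly6Chigh sample of mouse 1 this was −2.28, with 2 of 3 detected. The part of other blood cells in the family's values was not tested. All 24 of the last wells listed for card A read 40 in the Ly6Chigh sample of mouse 1. Of these 24 assays 5 were detected in each of the other samples, and 3 of those 5 were miR-17, miR-106a and miR-106b. Whether the card A values of this library belong to its label was not settled by the sources used here, and results are given with and without it.

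All 6 members were listed at a Ct of 40 in the Ly6Chigh sample of mouse 1 and were detected in each of the other 5 samples. This was not particular to the family. Of the 86 card A assays detected in these 5 samples, 46 (53.5%) were listed at 40 in that library. Conversely, 45 assays of card A were detected there and in no other sample.

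In the other 5 samples, miR-17, the first member of miR-17/miR-92a, was among the abundant miRNAs of card A. Its Ct was 22.98 and 21.95 in the Ly6Chigh samples of mice 2 and 3, and 21.96, 22.00 and 24.97 in the Ly6Clow samples of mice 1, 2 and 3. It ranked between the 5th and the 18th of the 112 to 146 assays detected on the card in a sample. miR-106a, the first member of the X-linked cluster, read 23.01 and 22.98 in the Ly6Chigh samples and 22.96, 21.98 and 24.95 in the Ly6Clow samples, and ranked 6th to 17th. The 2 near-identical miRNAs thus lay within about 1 cycle of each other in all 5 samples.

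miR-20a, the other member of miR-17/miR-92a, read 25.99 and 22.98 in the Ly6Chigh samples and 22.99, 22.98 and 24.98 in the Ly6Clow samples, with ranks from 13th to 20th. miR-106b, the first member of the cluster inside Mcm7, read 27.96 and 22.97 against 24.97, 23.96 and 24.96. It had the widest spread of the 6, from the Ly6Chigh sample of mouse 3 to that of mouse 2, and ranked 12th to 36th. The 2 remaining members were scarcer. miR-93 read 29.00 and 25.97 in the Ly6Chigh samples and 25.97, 25.97 and 28.97 in the Ly6Clow samples, with a rank of 43rd to 55th. miR-20b read 29.99 and 27.98 against 26.96, 26.96 and 29.97, and ranked 49th to 70th. In raw Ct the values of the subsets overlapped for all 6 members.

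**Figure D2:**
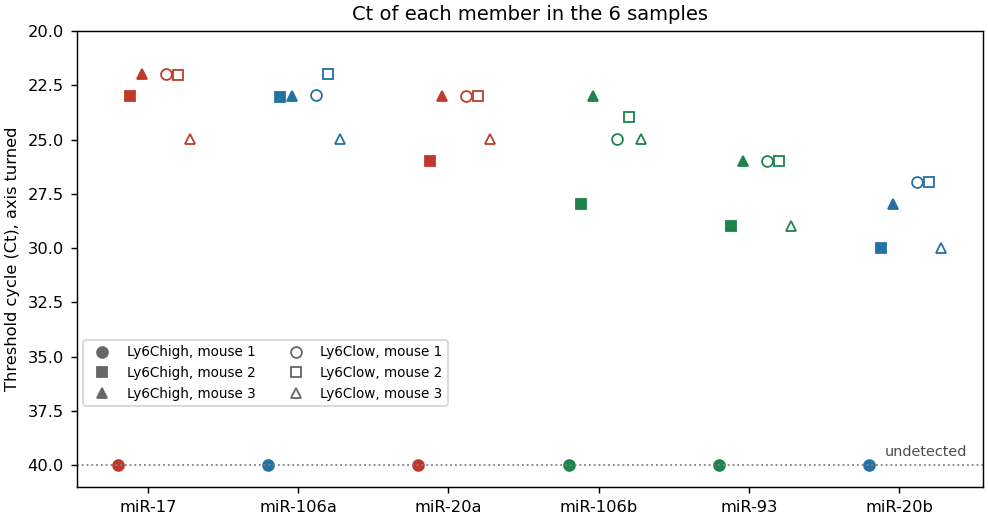
Ct of the 6 members in each sample, with the y axis turned so that more abundant miRNAs stand higher; filled symbols are Ly6Chigh, open symbols Ly6Clow, the symbol shape gives the mouse and the colour the cluster. All 6 circles of the Ly6Chigh sample of mouse 1 lie at 40, while the other 5 samples lie between 21.95 and 29.99.

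Ct values came in steps of about 1 cycle: 28 of the 30 detected values of the family lay within 0.05 cycles of a whole number, and the largest distance was 0.052. Differences are therefore read as about 0, 1, 2 or more cycles, and smaller ones were not resolved.

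Between members, differences of Ct within a sample do not depend on U6 or on the amount of input, since all 6 assays were read on the same card. Ct differences between assays equal differences in abundance only if the assays amplify equally well, which was not tested. Averaged over the 5 samples, which come from 3 mice, miR-106a followed miR-17 by 0.40 ± 0.56 cycles (SD, n = 5 samples). The Ct of miR-106a minus that of miR-20a was −0.81 ± 1.29 cycles. miR-106b came 0.98 ± 0.99 cycles after miR-20a. None of these 3 steps went beyond its spread. miR-93 was later than miR-106b in all 5 samples, with a Ct of miR-106b minus miR-93 of −2.21 ± 1.30 cycles. miR-20b was in turn later than miR-93 in all 5, with a Ct of miR-93 minus miR-20b of −1.20 ± 0.46 cycles. In each of the 3 clusters, the member whose hairpin comes first had the earlier Ct in all 5 samples, although miR-17 and miR-20a were 0.00 cycles apart in the Ly6Clow sample of mouse 3.

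The gap between miR-20b and miR-17 had the largest difference between the subset means, 1.53 cycles. It was followed by 1.35 cycles for miR-20a and for miR-106b against miR-17, so this order was not resolved. How often other pairs of card A assays separate was not tested. miR-20b was 7.00 and 6.03 cycles later than miR-17 in the Ly6Chigh samples of mice 2 and 3 and 5.00, 4.96 and 5.00 cycles later in the Ly6Clow samples, so the subsets did not overlap. miR-93 was 6.01 and 4.02 cycles later than miR-17 in the Ly6Chigh samples and 4.01, 3.97 and 4.00 in the Ly6Clow samples; here the separation rests on the Ly6Chigh sample of mouse 2, as 4.02 lies beside the Ly6Clow value of 4.01. Among all 15 pairs of members, these 2 gaps had the lowest p of the exact 2-sided permutation test, 0.2, which is the lowest that 2 samples against 3 allow, and every adjusted p over the 15 pairs was 1. With the Ly6Chigh sample of mouse 1, where both members of any pair are at 40 and the gap is 0 by construction, the lowest exact p was 0.5.

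The gap between miR-17 and miR-106a was 0.03 and 1.03 cycles in the Ly6Chigh samples and 1.00, −0.02 and −0.03 in the Ly6Clow samples, which overlapped. miR-20a was later than miR-17 by 3.01 and 1.03 cycles against 1.03, 0.98 and 0.00. The gap from miR-17 to miR-106b ranged most widely, with 4.98 and 1.02 cycles in the Ly6Chigh samples and 3.01, 1.96 and −0.02 in the Ly6Clow samples. For this pair the spread within each subset was larger than the difference between their means.

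**Figure D3:**
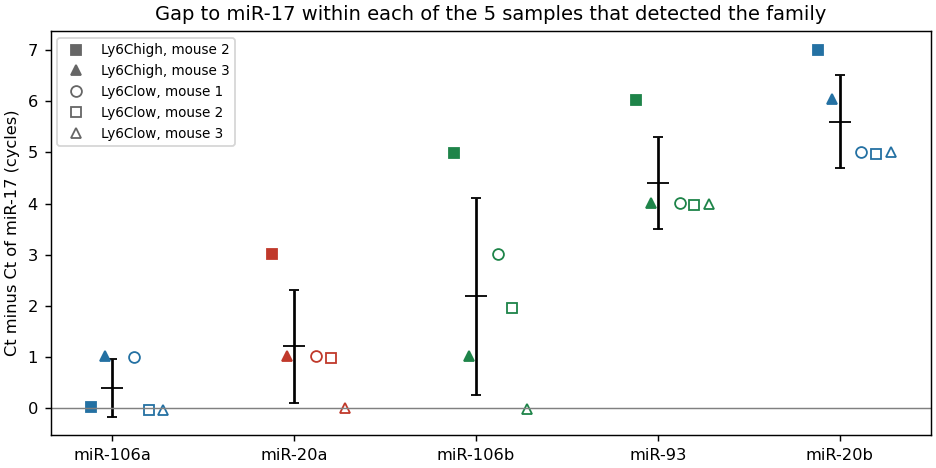
Ct of each other member minus the Ct of miR-17 in the same sample, in cycles, for the 5 samples that detected the family; filled symbols are Ly6Chigh, open symbols Ly6Clow, and the black marks give the mean ± SD over the 5 samples. Both filled symbols of miR-20b, at 7.00 and 6.03, lie above its 3 open symbols at about 5.

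To compare the subsets, the authors subtracted the Ct of U6, a small nuclear RNA, read on the same card and in the same sample, and the level of a miRNA is given here as −ΔCt, a log2 scale on which higher means more. On card A, U6 read 22.66, 24.66 and 20.77 in the Ly6Chigh samples and 19.80, 20.76 and 21.92 in the Ly6Clow samples of mice 1, 2 and 3. Relative to U6, the level of miR-17 was 1.67 and −1.18 in the Ly6Chigh samples of mice 2 and 3 and −2.15, −1.24 and −3.05 in the Ly6Clow samples, which averaged −2.15 ± 0.91 (SD, n = 3). Both Ly6Chigh values were above the 3 Ly6Clow values, the lower one (−1.18) only just above the highest of them (−1.24). In miR-20a the levels were −1.33 and −2.20 against −3.19, −2.21 and −3.06, without overlap but with −2.20 and −2.21 side by side.

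For miR-106a the levels were 1.65 and −2.21 in the Ly6Chigh samples and −3.15, −1.21 and −3.03 in the Ly6Clow samples, and for miR-20b they were −5.33 and −7.21 against −7.15, −6.20 and −8.05. Both members of the X-linked cluster overlapped between the subsets. miR-93 had levels of −4.34 and −5.19 against −6.17, −5.21 and −7.05, and miR-106b of −3.31 and −2.20 against −5.16, −3.20 and −3.04. Both Ly6Chigh values lay above all Ly6Clow values for 3 of the 6 members (miR-17, miR-20a and miR-93), compared with 29 of the 86 card A assays detected in these samples (33.7%). In each of these 3 members the lower Ly6Chigh value lay beside the highest Ly6Clow value (for miR-93, −5.19 beside −5.21). These distances are far below the steps of 1 cycle, so the separation was not resolved for any of the 3. In the Ly6Chigh sample of mouse 1, every member had the same level of −17.34, which is the floor of 40 cycles less U6 and not a measured value.

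Within mice 2 and 3, most differences of the family between the subsets lay above 0, towards Ly6Chigh, when read against U6. The difference, Ly6Chigh minus Ly6Clow, was 2.91 in mouse 2 and 1.88 in mouse 3 for miR-17, 2.86 and 0.82 for miR-106a, and 0.88 and 0.86 for miR-20a. It was 0.87 and 0.84 for miR-20b, 0.87 and 1.86 for miR-93, and −0.11 and 0.84 for miR-106b. Both values were above 0 for 5 of the 6 members. Among tested card A assays this held for 40 of the 110 with a signal in both mice (36.4%). It held for 37 of the 86 detected in all 5 samples (43%). The values of 0.82 to 0.88 were under 1 cycle and so not resolved. They lay beside the median of the card A assays, 0.87 in mouse 2 and 0.84 in mouse 3. The differences depend on U6, whose Ct differed by several cycles between the subsets of mouse 2. By raw Ct, all 6 members were later in Ly6Chigh in mouse 2, with a Ct in Ly6Clow minus Ly6Chigh from −0.98 (miR-17) to −4.01 cycles (miR-106b), and 1 of the 86 assays was earlier (1.16%). In mouse 3 all 6 members were earlier in Ly6Chigh, with the same difference at 1.97 to 3.03 cycles, where the median of the card A assays was 1.98.

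Against the other assays of the card, 2 of the 6 members lay at the median in both mice. The median difference of card A relative to U6 was 0.87 in mouse 2 over 119 assays and 0.84 in mouse 3 over 118 assays. miR-20a and miR-20b lay within 0.05 of this median in both mice, as did 16 of the 86 assays (18.6%). miR-17 alone among the members was over 0.5 above the median in both mice, by 2.04 and 1.04. This was not particular to miR-17, as 13 of the 86 assays (15.1%) were over 0.5 above it in both. Its cluster neighbour miR-18a, with differences of 1.87 and 1.86, was also above the median in both mice. miR-106a was above the median by 1.99 in mouse 2 and at it in mouse 3 (−0.02), and miR-93 was at it in mouse 2 (−0.00) and above it by 1.02 in mouse 3. miR-106b was below it in mouse 2 (−0.98) and at it in mouse 3 (0.00). These distances do not depend on U6. The platelet and endothelial marker miR-126-3p moved in the same direction as miR-17, by 1.90 in mouse 2, where miR-17 differed by 2.91, and by 1.84 in mouse 3. Its levels were −6.32 and −8.21 in the Ly6Chigh samples of mice 2 and 3 against −9.17, −8.23 and −10.05 in the Ly6Clow samples, and its part in the result was not tested. The erythroid markers, of which 1 of 3 was detected (miR-451, with miR-144 and miR-486 at 40), had a summed log2 level of −8.29 and −11.18 against −11.13 to −10.20, which overlapped.

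**Figure D4:**
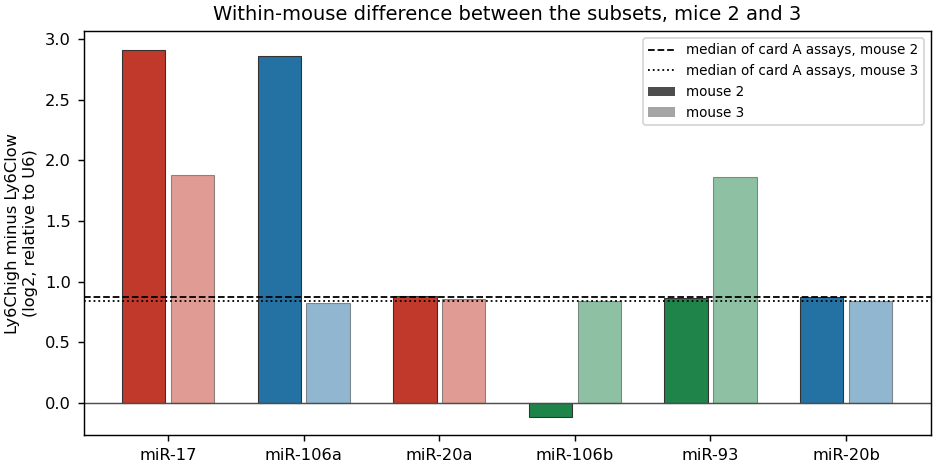
Level in Ly6Chigh minus level in Ly6Clow within mouse 2 (dark bars) and mouse 3 (light bars), in log2 units relative to U6, with 1 value per bar and hence no error bar; the dashed and dotted lines give the median of the card A assays in each mouse, 0.87 and 0.84. Both bars of miR-17 exceed the lines, and the bar of miR-106b in mouse 2 lies below 0.

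No member passed the test. Over all 6 samples, where the undetected library pulls the Ly6Chigh mean down, the difference estimated by limma was −3.46 (SE 5.05) for miR-17, −4.14 (SE 4.47) for miR-20a, −3.50 (SE 4.96) for miR-106a, −2.82 (SE 3.36) for miR-20b, −2.81 (SE 3.72) for miR-93 and −3.81 (SE 4.25) for miR-106b, each with an adjusted p of 0.985. Of all 201 assays tested 0 were called (0%), and 2 had an unadjusted p under 0.05, none of them a member. The exact 2-sided permutation test over the 6 samples gave p between 0.8 and 1 for the members, where 3 against 3 cannot go below 0.1.

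Without the Ly6Chigh sample of mouse 1, all 6 estimates turned positive. They were 2.40 (SE 1.29, 95% interval −1.10 to 5.89) for miR-17, 1.05 (−1.27 to 3.38) for miR-20a, 2.18 (−2.06 to 6.43) for miR-106a, 0.87 (−2.14 to 3.87) for miR-20b, 1.38 (−1.27 to 4.03) for miR-93 and 1.05 (−1.95 to 4.04) for miR-106b. The intervals all include 0, and limma's adjusted p was 0.965 for miR-17, miR-20a, miR-106a and miR-93 and 0.997 for miR-20b and miR-106b. Of all 201 assays 0 were called (0%), and 4 had an unadjusted p under 0.05. The median estimate was 0.89 over the 127 assays of card A in the same fit, with miR-17 and miR-106a furthest above it among the members. Every member's interval also covers differences of 3 log2 units in favour of Ly6Chigh, so these samples do not show that the subsets carry equal levels.

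When both samples of mouse 1 were left out and the remaining pairs were compared within the mouse, limma gave 2.40 (SE 0.46, 95% interval −0.00 to 4.79) for miR-17, with an unadjusted p of 0.0501 and an adjusted p of 0.443. It was the lowest p among the members. miR-20a had 0.87 (SE 0.22) and miR-20b 0.86 (SE 0.22), both with an adjusted p of 0.443, and the other 3 had adjusted p-values up to 0.830. In this fit 16 of the 201 assays had an unadjusted p under 0.05, none of them a member.

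Compared as clusters, by the mean level of their 2 members and as a description only, miR-17/miR-92a was higher in Ly6Chigh by 1.90 in mouse 2 and 1.37 in mouse 3, miR-106a/miR-363 by 1.86 and 0.83, and miR-106b/miR-25 by 0.38 and 1.35. In mouse 2 the cluster inside Mcm7 had the smallest difference of the 3, and in mouse 3 it did not. In mouse 1, where the Ly6Chigh values are the floor, the same differences were −14.67, −12.18 and −11.67. Over all mice the differences between subset means were −3.80, −3.16 and −3.31, and without the Ly6Chigh sample of mouse 1 they were 1.72, 1.53 and 1.21. The order of miR-106a/miR-363 and miR-106b/miR-25 thus changed between mice 2 and 3, and miR-17/miR-92a lay beside the higher of them in both.

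Expressed as shares of the family's summed signal (2 to the power of −Ct, which assumes that the assays amplify equally well), miR-17/miR-92a gave 52.1% and 58.5% in the Ly6Chigh samples of mice 2 and 3 and 67.5%, 52.4% and 48.5% in the Ly6Clow samples. It was the largest of the 3 clusters in all 5 samples. miR-106a/miR-363 gave 45.7% and 19.8% against 24.1%, 36.4% and 25.5%, nearly all of it from miR-106a. How far the assays of miR-106a and miR-17 share signal was not tested. The split between their 2 clusters therefore holds only if the assays tell them apart. The share of miR-106b/miR-25 was 2.18% and 21.7% in the Ly6Chigh samples and 8.43%, 11.1% and 26.1% in the Ly6Clow samples. Shares of all 3 clusters overlapped between the subsets. miR-93 gave 0.717% to 2.81% of the family's signal. miR-20b gave 0.361% to 0.599% in the Ly6Chigh samples and 0.759% to 1.42% in the Ly6Clow samples, without overlap. Its p was 0.2 in the exact 2-sided permutation test, the lowest that 2 samples against 3 allow. This share is computed from the same Ct values as the gap to miR-17 above, so it is no separate result.

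**Figure D5:**
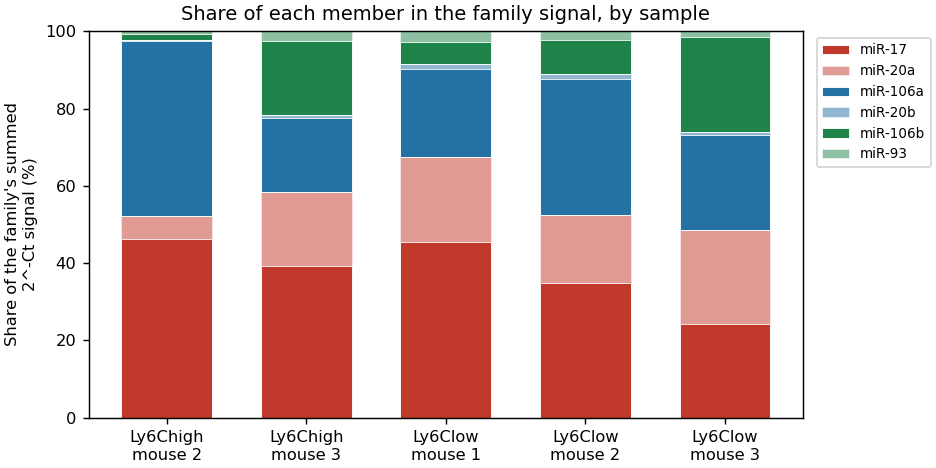
Share of each member in the family's summed signal, in percent of the sum of 2 to the power of −Ct, for the 5 samples that detected the family; 1 bar per sample and hence no error bar, with red for miR-17/miR-92a, blue for miR-106a/miR-363 and green for miR-106b/miR-25. The red share lies between 48.5% and 67.5%, and the green share between 2.18% and 26.1%.

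The other main-strand miRNAs of the clusters were read by 7 assays, of which 5 were tested and 0 were called. miR-18a, miR-19a, miR-19b and miR-25 were detected in all 6 samples, the Ly6Chigh sample of mouse 1 included, in which the members of the same clusters were at 40. miR-18a, whose seed differs from that of the family by a single base, read a Ct of 22.99 there but 26.98 to 30.99 in the other 5 samples. Its difference within mice 2 and 3 was 1.87 and 1.86, close to that of miR-17 in mouse 3. miR-19a differed by 0.88 and 0.86, miR-19b by 0.89 and 0.86, and miR-25 by 0.90 and 0.85, all close to the median of the card. Without the Ly6Chigh sample of mouse 1, 4 of the 5 had estimates above 0 with a median of 0.89, and miR-92a, detected in 3 samples, had −0.46 (SE 7.52). miR-18b was detected only in the Ly6Chigh sample of mouse 1, and miR-363 only in the Ly6Clow samples of mice 1 and 3. In all 5 other libraries, the X-linked cluster was therefore read only through miR-106a, miR-20b and miR-19b. Of these, miR-19b is also encoded by the miR-17/miR-92a cluster. The miR-106a assay may share signal with miR-17, which was not tested.

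The strands opposite to the members in their hairpins were read by 8 assays, of which 3 were tested and 0 were called. These 3 lie on card B, where libraries of different mice were less alike than on card A. Over its 74 tested assays the rank correlation (Spearman) was 0.794 to 0.901 between the 2 samples of a mouse. It went down to −0.195 between the Ly6Chigh samples of mice 2 and 3, which limits what card B values show across mice. miR-17#, read on card B, had Ct values of 31.98, 32.96 and 30.98 in the Ly6Chigh samples of mice 1, 2 and 3 and 29.03, 28.98 and 31.98 in the Ly6Clow samples. Relative to U6 of that card it differed by −0.60, 0.85 and −0.56 within the 3 mice. By raw Ct, miR-17# was earlier in Ly6Chigh in mouse 3 (30.98 against 31.98), as was miR-17. This is also the direction of the median over both cards, at which Ly6Chigh was earlier by 1.99 cycles in that mouse. miR-17# was earlier by less than this median and miR-17 by more (3.03 cycles). The sign of miR-17# turned when U6 of card B was subtracted, which read 21.15 in Ly6Chigh and 22.71 in Ly6Clow of that mouse. Its difference relative to U6 was under 1 cycle and so not resolved. The strands were read on different cards, and whether they differ between the subsets was not tested. The rat-named assay of miR-20a# was also detected in all 6 samples, at 25.01 to 29.97, and differed by −2.60, 0.81 and 0.45. Thus assays of the miR-17/miR-92a hairpins gave signal on card B in the very sample whose card A listed both members at 40. For miR-20a# this rests on the rat-named assay, as the mouse-named assay on the same card was at 40 in all 6 samples. The rat-named assays of the opposite strands of miR-17 and miR-20b on card A behaved the other way, with Ct values of 27.98 and 31.98 in the Ly6Chigh sample of mouse 1 and 40 in the other 5. Assays of mmu-miR-20a#, mmu-miR-20b# and hsa-miR-106b# were at 40 in all 6 samples, as was a second, rat-named assay of miR-20b on card B. hsa-miR-93# was detected in 3 samples.

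The miRNA families of miR-291 and of miR-302, known from embryonic stem cells, carry the bases AAGUGC of the seed shifted by a position. Of their 8 assays, only miR-291b-3p was detected in all 6 samples, on card B at 28.00 to 32.04, with an estimate of 0.68 (SE 1.43) over all 6 samples and an adjusted p of 0.985. miR-302d was detected only in the Ly6Chigh sample of mouse 1, at 28.95. The other 6 were not detected in any sample.

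The assays with the most similar profiles over the 5 samples, by the root mean square difference of centred Ct values among 126 other tested assays of the card, were as follows. miR-20b was nearest to miR-19a, at 0.0098 cycles, followed by miR-19b, at 0.017 cycles, and the epithelial marker miR-200c, at 0.018 cycles. Of these, miR-19b shares its cluster, while miR-19a lies in the miR-17/miR-92a cluster. miR-93 was nearest to miR-222, at 0.0022 cycles, and miR-20a to miR-10a, at 0.0077 cycles. With steps of 1 cycle such matches are common, and miR-20a had 7 assays within 0.05 cycles, miR-20b 3 and miR-93 1. miR-17, miR-106a and miR-106b had none, with their nearest assays at 0.395 (miR-126-3p, the platelet and endothelial marker), 0.407 (miR-139-5p) and 0.394 cycles (miR-324-5p). No member had another member as its nearest profile over these 5 samples. Over all 6, where the family shares the value of 40, miR-17 and miR-106a were nearest to each other, at 0.48 cycles.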

How the data were processed

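MiRNAs were measured in 6 monocyte samples with TaqMan arrays on 2 cards (per the labels, primers of pool A). The deposited tables hold raw Ct and ΔCt, log2 values of which the lower means more template, and 40 stands for an undetected reaction. The authors subtracted U6 of the same sample and card. How Ct was called (software, threshold) was not given in the sources used here. A table of the authors' own ratios between the subsets was not used. The 18 control wells were left out. Of 750 assays, 201 had a Ct under 35 in 3 or more samples and were tested with limma 3.58.1 (lmFit and eBayes, R 4.3.3) on −ΔCt with undetected reactions kept at their value, Benjamini-Hochberg adjustment and a threshold of 0.05. The limma steps were tested on simulated data. Permutation tests used scipy 1.17.1 and did not use the pairing by mouse. No depth exists for these arrays, and their number limits the precision.

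Members and lists (the clusters' other miRNAs, opposite strands, related seeds, cell type markers and nearest profiles) were chosen with earlier results of these data known. Samples of 1 number come from 1 mouse per the labels, and their deviations correlated at 0.317, 0.615 and 0.722. The alternatives were 4 other scalings, other filters, floors and models, the mouse as a block, and samples or mice left out. Medians and counts over mice 2 and 3 and profiles over 5 samples were added after seeing the data.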

Additional observations from a re-analysis of the deposited data

How the results depend on the processing

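The number of members called and of all assays called was 0 under each of the 21 alternatives that were run, with adjusted p-values of the members between 0.443 and 0.999, and no member was at an unadjusted p under 0.05 in any of them. The filter of a Ct under 35 in all 6 samples kept no member. The direction rests on the Ly6Chigh sample of mouse 1. With undetected reactions as missing, the differences (Ly6Chigh minus Ly6Clow, log2) turned to 2.40 for mmu-miR-17, 1.05 for mmu-miR-20a, 2.18 for mmu-miR-106a, 0.87 for mmu-miR-20b, 1.38 for mmu-miR-93 and 1.05 for mmu-miR-106b. Without mouse 1 and with the replicate block, which pairs the samples by mouse, they were 2.40, 0.87, 1.84, 0.86, 1.36 and 0.37 in the same order. The replicate block over all 3 mice left the estimates as they were, at −3.46 for mmu-miR-17, with an adjusted p of 0.949, and changed no call.

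With single samples or mice left out, the difference ranged from −7.11 to 2.40 for mmu-miR-17, −6.95 to 1.05 for mmu-miR-20a, −7.31 to 2.18 for mmu-miR-106a, −5.14 to 0.87 for mmu-miR-20b, −5.15 to 1.38 for mmu-miR-93 and −6.52 to 1.05 for mmu-miR-106b, and the cluster means from −7.03 to 1.72 (miR-17/miR-92a), −6.22 to 1.53 (miR-106a/miR-363) and −5.65 to 1.21 (miR-106b/miR-25). The values above 0 are those without mouse 1 or its Ly6Chigh sample. The other scalings, filters and models kept the sign, but median normalization brought the difference from −2.81 to −0.35 for mmu-miR-93, from −2.82 to −0.36 for mmu-miR-20b, from −3.50 to −1.04 for mmu-miR-106a, from −4.14 to −1.68 for mmu-miR-20a and from −3.81 to −1.35 for mmu-miR-106b, and mmu-miR-17 moved likewise. No scaling was tried on the 5 samples alone beyond the raw Ct and card medians given above.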
